A study of Mus musculus with 15 samples.

Results

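The 9 genes described here encode factors that stand between the liver's circadian clock and the genes it drives: Dbp, Tef, Hlf, Nfil3, Bhlhe40, Bhlhe41, Ciart, Rora and Usp2. They were taken by symbol from the authors' deposited table of results for genotype, which holds 24965 genes. All 9 were found, each on 1 row, and all 9 were among the 13335 genes with a deposited adjusted p, called tested genes below. Usp2 encodes a ubiquitin protease and not a transcription factor, so the set is called clock output factors here.

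The RNA came from livers of C57BL/6J males of 9 weeks, all of which carried floxed alleles of the zinc finger factor Gata4. The deposited comparison sets 4 fasted livers labelled Gata4LKO (virus AAV8-Tbg-Cre, in which the Tbg promoter directs Cre to hepatocytes; called knockout here) against 4 fasted control livers (empty AAV8). The authors' model was fitted to these and to 3 refed knockout and 4 refed control livers. The table gives 1 mean over all 15 livers and no value per liver, so levels are not given by group. Virus was given at 8 weeks of age, 7 days before collection. Fasted mice went without food for 12 h from 9 to 10 pm. Refed mice were fasted for 12 h by day and then had a diet of 69% sucrose and 10% fat for 12 h overnight. Per the labels, every mouse was killed between 9 and 10 am, so the groups shared a nominal hour of collection. With 1 time of day, a shift in the timing or amplitude of a rhythmic transcript cannot be told apart from a change in its overall level. Lower and higher below refer to that hour only. The light schedule is not given in the sources used here. Control mice received no Cre, so Cre itself and loss of Gata4 cannot be told apart. Titles within a group begin with the same unexplained number, so a cage, litter or day shared within a group cannot be told apart from the group either, and p-values measure only the spread between these livers.

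The circadian clock of the liver is a loop in which CLOCK and BMAL1 (gene Arntl) activate genes through E-boxes, and the products of the Per and Cry genes then block that activation. Dbp, Tef and Hlf are PAR bZIP activators that carry the rhythm onward through D-boxes, in the liver above all to genes of drug and lipid handling. Nfil3 binds the same D-boxes and represses. Bhlhe40 and Bhlhe41 (DEC1 and DEC2) and Ciart (CHRONO) repress CLOCK and BMAL1 at E-boxes, Rora activates through ROR elements such as those of Arntl, and Usp2 removes ubiquitin from clock proteins.

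Promoter sequences are shown because the members' roles are defined by these DNA elements. RefSeq windows of 300 bases (250 before and 50 after an annotated gene start, build GRCm38.p6) matched 8 of the 9 members, with 9 windows in all. The unmatched member was Bhlhe40. Windows were searched on both strands for the E-box CACGTG, the D-box TTATGTAA or TTACGTAA, a ROR element (the letters AGGTCA after AANT) and GATA sites (AGATAA or TGATAA or AGATAG or TGATAG). Matched letters did not overlap each other in any member's window. Below, the stretch before the first annotated exon base of each gene is printed for the members with such a match, with E-boxes or GATA sites in capitals. The stretches of Ciart, Bhlhe41 and Rora lie upstream of these genes, and that of the second start of Tef lies in the gene's intronic sequence. The bases before the first start of Tef are annotated as exon of other Tef transcripts and are not printed.
Ciart (minus strand, chr3:95882252-95882478): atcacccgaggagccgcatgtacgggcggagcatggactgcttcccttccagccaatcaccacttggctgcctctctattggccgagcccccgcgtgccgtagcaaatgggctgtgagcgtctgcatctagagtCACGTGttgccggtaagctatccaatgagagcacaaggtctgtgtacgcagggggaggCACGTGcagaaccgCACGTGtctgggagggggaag
Bhlhe41 (minus strand, chr6:145865559-145865670): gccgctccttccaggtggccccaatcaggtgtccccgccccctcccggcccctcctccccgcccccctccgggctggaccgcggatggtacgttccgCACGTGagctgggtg
Tef, second start (plus strand, chr15:81811164-81811413): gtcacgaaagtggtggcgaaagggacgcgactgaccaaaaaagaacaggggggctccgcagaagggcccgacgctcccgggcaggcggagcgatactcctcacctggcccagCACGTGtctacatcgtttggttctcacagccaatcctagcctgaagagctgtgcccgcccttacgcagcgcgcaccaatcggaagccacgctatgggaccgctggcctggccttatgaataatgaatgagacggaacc
Rora (plus strand, chr9:68653536-68653785): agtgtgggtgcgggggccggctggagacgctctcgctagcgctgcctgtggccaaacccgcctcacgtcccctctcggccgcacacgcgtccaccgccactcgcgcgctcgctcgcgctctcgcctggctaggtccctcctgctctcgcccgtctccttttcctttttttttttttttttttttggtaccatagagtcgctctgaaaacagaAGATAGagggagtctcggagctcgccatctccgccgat

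E-boxes were the commonest of the 4 elements in these windows. Ciart held 3 of them, beginning 116, 58 and 44 bases before its start, as its printed stretch shows. At least 3 E-boxes were held by 29 of 32851 windows in the table (0.0883%). Bhlhe41 held 1 E-box, 153 bases before its start. Tef held 1 at each of its 2 starts, 127 and 138 bases before them. A window with at least 1 E-box was found for 3 of 8 matched members, which leave out Bhlhe40, and for 8.09% of the 27025 genes in the table. Dbp, Hlf, Nfil3, Rora and Usp2 held no such letters in their windows, which says nothing of E-boxes elsewhere in these genes. GATA letters stood in the windows of Rora (AGATAG, 38 bases before the start) and of the first start of Tef (AGATAA, 172 bases before it), that is in 2 of 8 members, against 33.0% of all genes. D-box and ROR letters were in none of the members' windows and in 1.23% and 0.259% of genes. A match describes letters only, and binding was not measured.

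**Figure D1:**
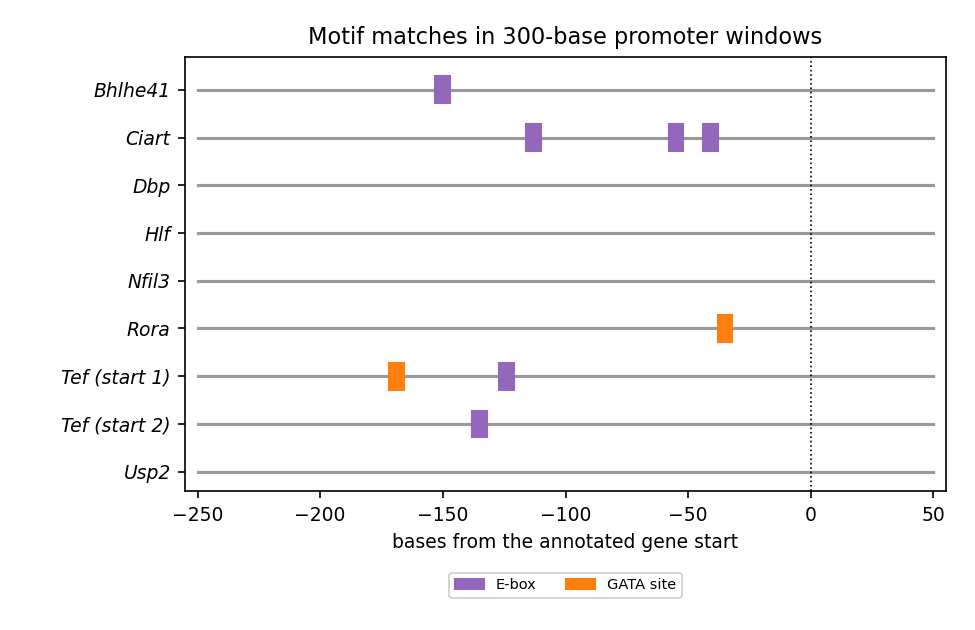
Positions of E-box and GATA site letters in the 300-base promoter windows of 8 members, in bases from the annotated gene start (dotted line); each row is a window, and Tef has 2. Ciart has 3 E-boxes, at 116, 58 and 44 bases before the start, while Bhlhe41 and each Tef start have 1.

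The targeted gene, Gata4, was not called lower in livers with the knockout label. Its log2 fold change (knockout minus control, fasted) was 0.31 ± 0.15 (SE) from the authors' deposited table, a higher estimate and so opposite to the label. The 95% interval, from 0.03 to 0.60, left out 0, and the unadjusted and adjusted p were 0.0324 and 0.361 (DESeq2 Wald test, Benjamini-Hochberg adjustment). Reads counted over all exons cannot show that some of them were deleted, and which exons are floxed is not given in the sources used here. Groups below are therefore livers as labelled. Which groups the table compares was inferred from genes that had 1 read in all, as given with the processing. Of 68 readings 2 matched the table, knockout minus control in fasted livers and refed minus fasted in control livers, and the first was taken because the table is named for genotype. Of 17 feeding-controlled genes in a fixed list, 3 were called lower (Thrsp, Fasn and Srebf1, at -0.80, -0.77 and -0.72 on the log2 scale in the authors' deposited table) and 0 higher; with the t distribution described below none of the 3 was called, and with scaled Wald values Srebf1 was not. The fasting-induced Pck1 had a deposited log2 fold change of 0.01 ± 0.82 (SE) and was named after its value was seen. Under the second reading every fold change below would be refed over fasted control livers.

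Among the clock output factors, Bhlhe40 fell to about 0.503 times its control level in knockout livers and no other member was called. A gene is called here at a deposited adjusted p under 0.05. That gave 1 of 9 members lower and 0 higher, with 8 not called. Of all tested genes 2.19% were called (292 genes), 1.6% lower and 0.585% higher. That number moved with the test: 38 genes (0.285%) were called with Wald values referred to a t distribution of 11 degrees of freedom, and 145 (1.09%) with Wald values divided by their robust spread over all tested genes (1.15). Bhlhe40 was called both times and no other member was. Nfil3, the one repressor of D-boxes, missed the threshold on the higher side. At an unadjusted p under 0.05 stood 4 of 9 members, 3 with lower estimates (Bhlhe40, Bhlhe41, Ciart) and 1 with a higher one (Nfil3). The same held for 11.4% of tested genes, 6.21% lower and 5.17% higher. Estimates were negative for 7 members and positive for Nfil3 and Rora. The median log2 fold change of the 9 was -0.57, against 0.01 over all tested genes. These counts describe the 9 genes, which were put together with results of these data known.

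**Figure D2:**
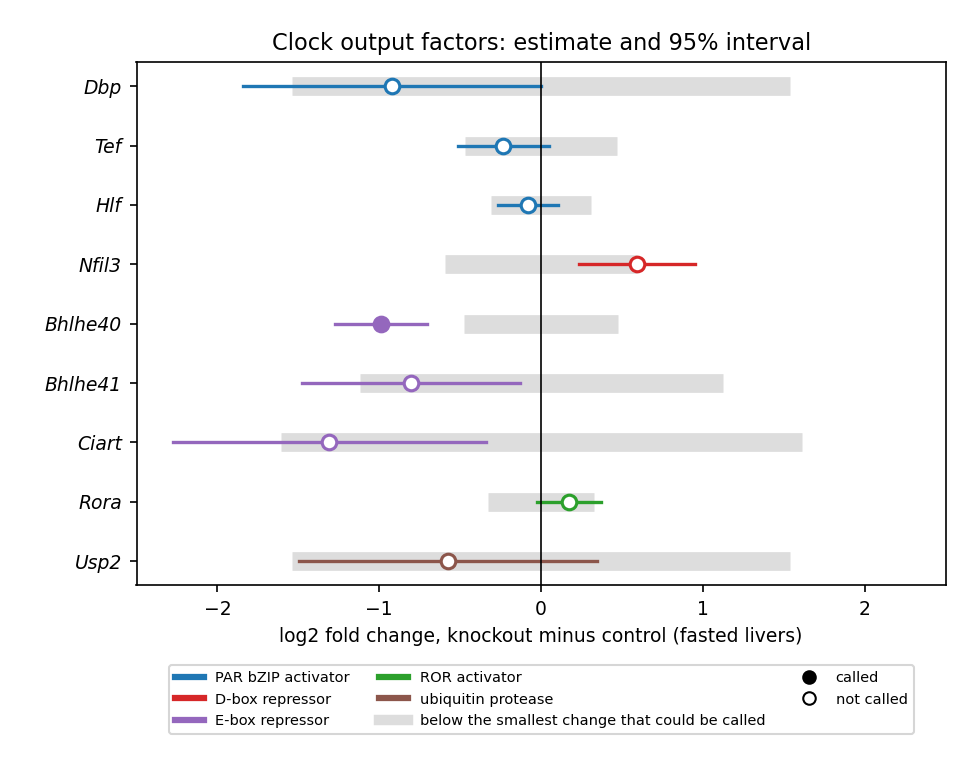
Log2 fold change (knockout minus control, fasted livers) of each member from the authors' deposited table, with its 95% interval. Filled points were called, and grey bars span the estimates too small to be called at that gene's standard error. Bhlhe40, at -0.99, lies outside its grey bar, Nfil3, at 0.59, lies at the edge of its bar, and the other points lie inside.

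All 3 E-box repressors had lower estimates in knockout livers, and only Bhlhe40 was called. Bhlhe40 (ENSMUSG00000030103, chromosome 6, 108660629 to 108666925, plus strand, GRCm38) fell by 0.99 ± 0.15 (SE) on the log2 scale in the authors' deposited table. Its level in knockout livers was thus 0.503 times that in control livers, with a 95% interval from 0.413 to 0.613. The deposited adjusted p was 8.98e-09 (DESeq2 Wald test, Benjamini-Hochberg adjustment), the 14th smallest p among 13335 tested genes. By size, 227 tested genes (1.70%) had a larger change in either direction.

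Bhlhe41, the close relative of Bhlhe40 (ENSMUSG00000030256, chromosome 6, 145858243 to 145865558, minus strand), had a deposited log2 fold change of -0.80 ± 0.34 (SE). Its 95% interval ran from -1.48 to -0.13, and its adjusted p was 0.278 (DESeq2 Wald test, Benjamini-Hochberg adjustment), so that it was not called. That interval contains the estimate of Bhlhe40, and the difference between the relatives was not tested because the table holds no values per liver. Ciart (ENSMUSG00000038550, chromosome 3, 95878503 to 95882251, minus strand), the member with 3 promoter E-boxes, had the largest estimate of the set. It was -1.31 ± 0.49 (SE) from the authors' deposited table, 0.404 times the control level with an interval from 0.207 to 0.788. Its adjusted p was 0.172 (DESeq2 Wald test, Benjamini-Hochberg adjustment), and 0.825% of tested genes had a larger change.

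The single D-box repressor pointed the other way. Nfil3 (ENSMUSG00000056749, chromosome 13, 52967209 to 52981073, minus strand), also a regulator of lymphoid cell development, had a deposited log2 fold change of 0.59 ± 0.18 (SE). That is 1.51 times the control level, with an interval from 1.18 to 1.93. Its adjusted p was 0.0513 (DESeq2 Wald test, Benjamini-Hochberg adjustment), and its Wald value of 3.25 lay just short of 3.27, the smallest of any called gene. The call turned with the set of genes adjusted over: the adjusted p was 0.0431 over genes whose mean reached 100, and the highest value under any setting tried was 0.345.

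The PAR bZIP activators, which act at the same D-boxes, were not called. Dbp (ENSMUSG00000059824, chromosome 7, 45705088 to 45710203, plus strand), the most strongly rhythmic of them in mouse liver, had a deposited log2 fold change of -0.92 ± 0.47 (SE). Its interval ran from -1.84 to 0.00 and its unadjusted and adjusted p were 0.0501 and 0.440 (DESeq2 Wald test, Benjamini-Hochberg adjustment). Its estimate was close in size to that of Bhlhe40, while its standard error was 0.47 against 0.15. Tef (ENSMUSG00000022389, chromosome 15, 81802421 to 81826863, plus strand) had a deposited log2 fold change of -0.23 ± 0.14 (SE), with an interval from -0.52 to 0.05. Hlf (ENSMUSG00000003949, chromosome 11, 90336536 to 90390895, minus strand) stood at -0.08 ± 0.09 (SE) from the authors' deposited table. Its interval, from -0.27 to 0.11, was the narrowest of the 9 and holds only levels between 0.832 and 1.08 times control. The interval of Dbp, by contrast, reaches down to 0.278 times control.

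Rora (ENSMUSG00000032238, chromosome 9, 68653786 to 69388246, plus strand), an orphan receptor that activates Arntl, had a deposited log2 fold change of 0.17 ± 0.10 (SE), with an interval from -0.03 to 0.37. The interval keeps its level between 0.983 and 1.29 times control. Usp2 (ENSMUSG00000032010, chromosome 9, 44067021 to 44095627, plus strand) had a deposited log2 fold change of -0.57 ± 0.47 (SE), and its interval, from -1.50 to 0.35, includes levels from 0.355 to 1.27 times control. The adjusted p of these genes were 0.541 and 0.742 (DESeq2 Wald test, Benjamini-Hochberg adjustment).

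How firmly a member could be measured differed widely. The deposited mean over all 15 livers ran from 102 normalized counts for Ciart to 2788 for Bhlhe40, and the deposited standard error from 0.09 for Hlf to 0.49 for Ciart. Each member was set beside the 200 tested genes nearest to it in mean. All 9 had a standard error above the median of these neighbours. For Dbp it was 4.78 times the median (99th percentile) in the authors' deposited table, for Usp2 2.98 times (99.5th percentile) and for Ciart 2.93 times (98.5th percentile). Bhlhe41 stood at 2.16 times (98.5th percentile) and Nfil3 at 1.93 times (95th percentile). Bhlhe40, the called member, stood at 1.79 times (89.5th percentile) and Tef at 1.74 times (91st percentile). Hlf and Rora were nearest to their neighbours, at 1.09 and 1.24 times. The standard error draws on all 4 groups of livers, so a gene that varies within any of them carries a large one. The smallest estimate that could have been called was 1.54 on the log2 scale for Dbp (2.90-fold) and 1.61 for Ciart. It was 1.54 for Usp2 and 1.12 for Bhlhe41. It was 0.48 for Bhlhe40, 0.47 for Tef, 0.33 for Rora and 0.31 for Hlf. An estimate of 1 on the log2 scale in Dbp, Ciart, Usp2 or Bhlhe41 would therefore not have been called. These values bound the estimate and not the true change. A change of at least 0.5 on the log2 scale in either direction was seen in 6 of 9 members and in 8.12% of tested genes; the members' larger standard errors stand beside that count, and their part in it was not tested.

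**Figure D3:**
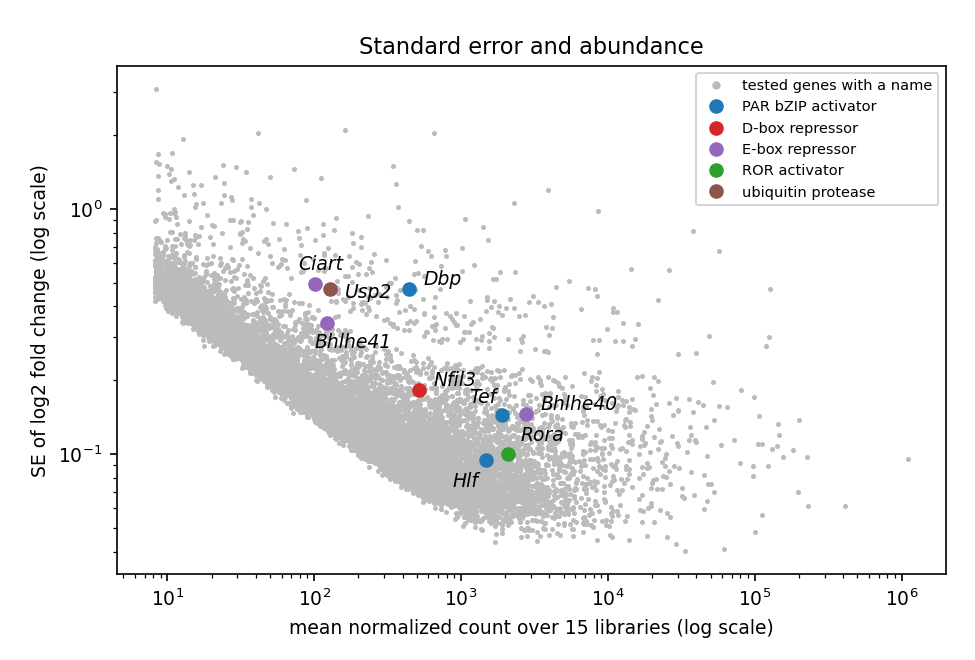
Standard error of the log2 fold change against mean normalized count over 15 libraries (both axes logarithmic) for tested genes with a name in the authors' deposited table, with the 9 members coloured by role. Dbp, Ciart, Usp2 and Bhlhe41 lie above most genes of like mean, as do Nfil3, Bhlhe40 and Tef by less, and Hlf and Rora lie within the band.

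Levels between members are compared per length. Divided by the length of annotated exons (GENCODE M21, GRCm38), the authors' mean was highest for Bhlhe40, at 593 normalized counts per kb. Nfil3, Tef and Hlf followed at 254, 242 and 222 per kb, and Rora and Dbp at 160 and 148 per kb. Ciart, Usp2 and Bhlhe41 were lowest, at 45.1, 26.7 and 18.2 per kb. These means pool all groups and carry no error, so neighbours in the order were not tested against each other, and the transcript forms the liver uses may be shorter than the annotated exons together.

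**Figure D4:**
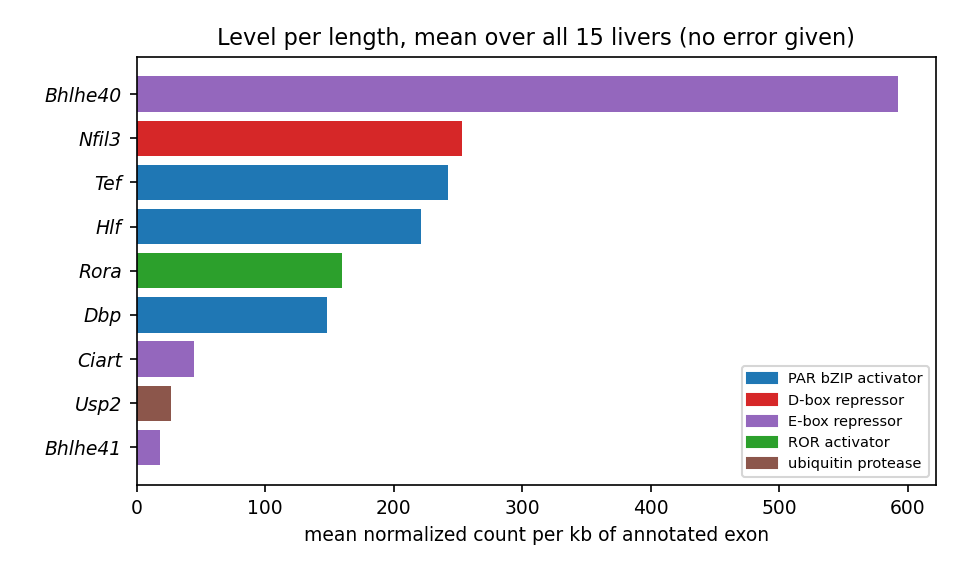
Authors' mean normalized count per kb of annotated exon for each member, over all 15 livers with no error available; bars are coloured by role. Bhlhe40 is highest at 593 per kb and Bhlhe41 lowest at 18.2 per kb.

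Some members share exon sequence with a gene on the other strand, and the strand setting of the counting is not given in the sources used here. Dbp shares 539 exonic bases (18.0% of its exons) with Sphk2, whose deposited log2 fold change was 0.08 ± 0.18 (SE). Bhlhe41 shares 1280 exonic bases with Gm43909, which had a deposited mean of 0.798 normalized counts. Bhlhe40 shares 118 bases with 0610040F04Rik, which had a deposited mean of 5.83 normalized counts against 2788 for Bhlhe40.

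In the core clock, Per2 and Per3 were called lower, as Bhlhe40 was. Of 17 tested core clock genes 2 were called lower, 0 higher and 15 not called, and 6 had an unadjusted p under 0.05. The median log2 fold change of the list was -0.10, against 0.01 over all tested genes. Per3 and Per2, repressors of CLOCK and BMAL1 that are themselves driven through E-boxes, stood at -0.89 ± 0.24 and -0.75 ± 0.17 (SE) from the authors' deposited table. Their adjusted p were 0.0182 and 0.000999 (DESeq2 Wald test, Benjamini-Hochberg adjustment). Neither was called with the t distribution, at adjusted p of 0.260 for Per3 and 0.130 for Per2, and with scaled Wald values Per3 was not, at 0.101 (Wald tests with Benjamini-Hochberg adjustment). Per1 had a deposited log2 fold change of -0.31 ± 0.47 (SE), with a standard error as large as that of Dbp. The activators had positive estimates, at 0.66 ± 0.33 for Npas2, 0.31 ± 0.18 for Arntl and 0.20 ± 0.10 (SE) for Clock in the authors' deposited table, and none was called. The Cry genes went both ways. Cry2 and Cry1 had deposited log2 fold changes of -0.34 ± 0.15 and 0.19 ± 0.18 (SE), and neither was called. Those of the core clock genes Nr1d1 and Nr1d2 were -0.22 ± 0.21 and -0.08 ± 0.12 (SE), also without a call. Per1, Npas2, Arntl, Clock, Cry1, Cry2, Nr1d1 and Nr1d2 were named after their values were seen.

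**Figure D5:**
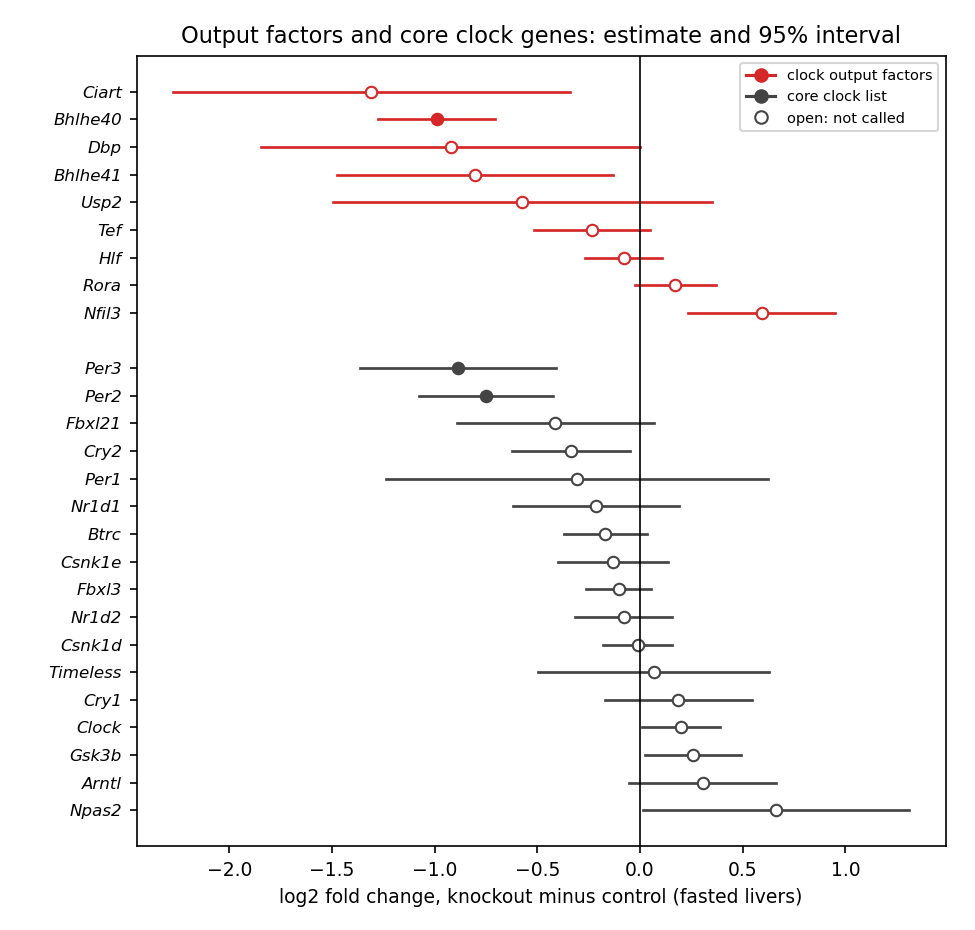
Log2 fold change (knockout minus control, fasted livers) with 95% interval for the 9 clock output factors (red) and 17 core clock genes (grey) from the authors' deposited table, each sorted by estimate; filled points were called. Bhlhe40, Per3 and Per2 are the called genes, at -0.99, -0.89 and -0.75.

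No reported target of the D-box factors was called. Of 10 reported liver targets of the PAR bZIP factors, the authors' DESeq2 Wald test called 0, 1 lay under 0.05 before adjustment, and 9 of 10 estimates were positive, with a median of 0.12. The lowest p was that of Cyp2a5, a coumarin hydroxylase known as a DBP target in mouse liver, at 0.97 ± 0.34 (SE) with an adjusted p of 0.119 (DESeq2 Wald test, Benjamini-Hochberg adjustment) in the authors' deposited table. Ppara, the fatty acid receptor, stood next at 0.17 ± 0.12 (SE) from the authors' deposited table.

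Of 16 other rhythmic liver transcripts 1 was called, lower. Rgs16, a regulator of G protein signalling, stood at -1.92 ± 0.52 (SE) from the authors' deposited table, and was called neither with the t distribution nor with scaled Wald values. Nampt, the rate-limiting enzyme of NAD salvage and an E-box target, had -0.32 ± 0.10 (SE) with an adjusted p of 0.0635 (DESeq2 Wald test, Benjamini-Hochberg adjustment) in the authors' deposited table. The median of that list was 0.03. Among 11 tested relatives of the members (C/EBP, Hes and Hey factors, and ubiquitin proteases) the authors' DESeq2 Wald test called 0, and 0 lay under 0.05 before adjustment. Their deposited log2 fold changes all lay between -0.23 (Cebpa) and 0.13 (Cebpg).

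Cues that set the liver clock from outside were read from glucocorticoid- and temperature-responsive genes. Of 11 tested, the authors' DESeq2 Wald test called 0 and 2 lay under 0.05 before adjustment, with a median of 0.07. These were the cold-induced Rbm3, at -0.21 ± 0.10 (SE), and the heat shock gene Hsph1, at 0.38 ± 0.19 (SE), in the authors' deposited table.

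Among cell type markers, 1 type had estimates of 1 sign throughout. All 12 Kupffer cell and macrophage markers had negative estimates, from -0.50 to -0.04 with a median of -0.27, and the authors' DESeq2 Wald test called 0, with 1 under 0.05 before adjustment. The smallest p were those of Clec4f and Csf1r, with deposited log2 fold changes of -0.27 ± 0.13 and -0.27 ± 0.14 (SE). None of these markers was at 0; their deposited means ran from 49.1 to 565 normalized counts. Macrophages can express Bhlhe40 and Nfil3, and the part of these cells in the members' values was not tested. In whole liver, fewer cells of a type and less RNA per cell cannot be told apart. Hepatocyte markers showed the labelled tissue, with a mean of 1.11e+06 normalized counts for Alb in the authors' deposited table, a gene named for its level after its value was seen. Of 8 tested 1 was called, Apoa1, at -0.48 ± 0.11 (SE), and it was not called with the t distribution. Ahsg stood next at -0.15 ± 0.06 (SE) from the authors' deposited table, without a call. Hepatocyte markers went both ways: 5 of the 8 estimates were positive, with a median of 0.09. By the authors' DESeq2 Wald test 4 of the 8 lay under 0.05 before adjustment, 2 lower and 2 higher. Endothelial, stellate and cholangiocyte markers had 0 calls among 8, 6 and 4 tested by that test, with 2, 0 and 0 at an unadjusted p under 0.05, and medians of 0.18, 0.07 and 0.05. The smallest p among endothelial markers were those of Lyve1 and Clec4g, with deposited log2 fold changes of -0.71 ± 0.33 and 0.25 ± 0.12 (SE). Among stellate markers they were those of Dcn and Reln, with deposited values of 0.21 ± 0.15 and 0.22 ± 0.18 (SE), and among cholangiocyte markers those of Krt19 and Epcam, with 0.66 ± 0.57 and -0.38 ± 0.38 (SE). Of the lymphocyte markers 1 was tested, Cd3e, at -1.10 ± 0.55 (SE) from the authors' deposited table on a mean of 8.44 normalized counts, and it was not called.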

How the data were processed

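Total RNA of frozen liver was isolated with TRIzol and an RNeasy kit and sequenced from stranded KAPA libraries, per the labels' protocols. FastQC, STAR 2.6.0c, DESeq2 and the mm10 build are named in the submitters' processing notes. How reads were counted, on which strand and with which annotation is not given in the sources used here. Planned count tests need values per liver and could not be run, so the deposited test was read, as planned for that case. Per the file headers, its mean is a signal (counts divided by size factors, averaged over libraries by the authors), its effect and standard error are log2 values of the authors, and its statistic is a Wald score of the authors. Deposited p-values equal a two-sided normal Wald test, and adjusted ones a Benjamini-Hochberg adjustment over 13335 genes; the other 11630 had no adjusted p. Depth per liver is unknown; size factors, from the means of 166 genes with a single read, lay between 0.912 and 1.11, and the means summed to 1.80e+07.

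The header does not name the groups compared. Estimates of the single-read genes were computed under 68 readings (models, reference groups, contrasts, signs). With fitted means held at 0.5, a dispersion of 15 and a ridge of 1e-06, 2 readings gave the deposited values within 8.88e-15 and the closest other differed by 4.37e-05. They are named in the report; group sizes cannot separate them.

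Intervals are estimates plus or minus 1.96 standard errors. Motifs, exon lengths (GENCODE M21) and RefSeq windows are of GRCm38. Named genes were all members, Gata4, and from each list the called genes or, with fewer than 2, the tested genes of smallest p up to 2; exceptions are marked where they are named. Some listed genes are not reported here, and the lists' counts leave them out. Members and lists were chosen with earlier results of these data known. Code was tested on a simulated genotype table: of 200 genes changed by 1 on the log2 scale among 13335, 197 were recovered, with 8 false calls. These counts check the code and do not measure power or the rate of false calls in the real livers. An estimate of 1 in Dbp, Ciart, Usp2 or Bhlhe41 would not have been called. Python 3.11.15, pandas 2.3.3, numpy 2.4.6, scipy 1.17.1 and matplotlib 3.10.9 were used. Alternatives varied the genes adjusted over, threshold, distribution, centring and scaling.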

Additional observations from a re-analysis of the deposited data

How the results depend on the processing

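Under 9 planned settings the call of Bhlhe40 held each time, with adjusted p between 5.15e-09 and 0.0261, and the count of members called lower stayed at 1. With a threshold of 0.1, which by construction can only add calls, the count of members called higher was 1 (Nfil3) in place of 0. The count was also 1 (Nfil3) with the adjustment over genes whose mean reached 10 (adjusted p just under 0.05) or 100 (adjusted p 0.0431). It stayed 0 under the other 6 settings. Calls over the whole table numbered 292 as deposited and between 38 (t distribution) and 434 (threshold of 0.1) under the 9 settings; they were 145 with scaled Wald values and 167 with a threshold of 0.01. Of the 7 called genes of the lists, the t distribution left 0 called and scaled Wald values 4 (Per2, Thrsp, Fasn and Apoa1); a threshold of 0.01 left the same 4, and Srebf1 was also lost when all genes that had a p were adjusted together (adjusted p 0.0532). In all, 78 of 81 values for single members kept their direction and side of the threshold, and the other 3 were of Nfil3. Over these settings the lowest adjusted p was 0.153 for Ciart, 0.244 for Bhlhe41 and 0.395 for Dbp. The median of the members moved by under 0.1 with centring. It kept its value of -0.57 with each planned row choice by construction, because each member had 1 row and an adjusted p. E-box counts over member genes were the same in the 250 bases before the start. The second reading of the table changes no value, only the groups it refers to. No paired analysis was possible because values per liver are not in the table analysed, and leaving out single livers was not possible for the same reason.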
